A study of Mus musculus with 24 samples.

Results

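The 3 miRNAs described here, mmu-miR-183-5p, mmu-miR-96-5p and mmu-miR-182-5p, are the main products of the hairpins Mir183, Mir96 and Mir182, which lie side by side on 1 strand of chromosome 6. They were taken by name from the 1009 miRNAs listed for mouse mammary gland, and all 3 belonged to the 544 that were tested, which reached a stage mean of 1 RPM or more (reads per 1000000 reads on miRNAs) at some stage. Small RNA had been sequenced from whole gland homogenates of 24 female C57BL/6 mice, an inbred strain, 1 library per mouse and 6 mice per stage, with no genetic change or treatment in any group. The W10 mice were adults 10 weeks old, and the P18 mice were in late pregnancy, on gestation day 18. The Lac7 mice had been lactating for 7 days, and the Inv3 mice were on the third day of involution (day 3), the regression of the gland once suckling ends. These days are those of the sample labels and of the study's methods, whereas the series' design text has lactation at day 3 and involution at day 7. A homogenate mixes epithelium, fat, stroma, vessels and blood, and in such bulk samples fewer cells of a type and less RNA per cell cannot be told apart.

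A hairpin is cut to a short duplex, and 1 of its arms is loaded into an Argonaute protein, where bases 2 to 8, the seed, pair with target mRNAs and lower their translation or stability. The miR-183, miR-96 and miR-182 hairpins are known to be made from 1 shared primary transcript, and the cluster is best known from sensory cells, such as the hair cells of the inner ear and the photoreceptors of the retina. Base changes in the miR-96 seed cause hearing loss in mice and humans. In breast cancer cells, miR-96 and miR-182 are known to lower FOXO1, a transcription factor that acts against growth signals, and the cluster is often raised in cancers of epithelial origin.

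The mature sequences, taken from RefSeq on GRCm38.p6, are shown because the members are close in sequence but do not carry the same seed, which is in capitals (bases 2 to 8, counted from 1 at the 5′ end).
miR-183-5p: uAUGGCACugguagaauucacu
miR-96-5p: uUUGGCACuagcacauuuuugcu
miR-182-5p: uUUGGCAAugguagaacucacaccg
Between miR-183-5p and miR-96-5p the seeds differ by A2U, between miR-96-5p and miR-182-5p by C8A, and between miR-183-5p and miR-182-5p by both A2U and C8A. Thus miR-96-5p and miR-182-5p share bases 1 to 7, the run UUUGGCA. Outside the seed the likeness was of another kind. Aligned from the 5′ end without gaps, miR-183-5p and miR-182-5p had the same base at 18 of 22 positions, miR-183-5p and miR-96-5p at 13 of 22, and miR-96-5p and miR-182-5p at 12 of 23. Among the 1738 mature mouse miRNAs of the RefSeq table, only miR-1271-5p had the seed of a member, that of miR-96-5p, and it was not among the 1009 miRNAs listed. How many mismatches were allowed when reads were assigned is not given in the sources used here.

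In GRCm38, Mir183 spans chr6:30169668-30169737, Mir96 chr6:30169446-30169551 and Mir182 chr6:30165918-30165992, all on the minus strand, with the same positions in GENCODE and RefSeq. No other annotated gene overlaps a hairpin, so that they are intergenic. A gap of 116 bases separates Mir183 from Mir96, and 3453 bases lie between Mir96 and Mir182. The nearest annotated genes are Rncr4, a long non-coding RNA 3155 bases from Mir183 on the plus strand, Nrf1, 12459 bases from Mir182 on the plus strand, and Ube2h, 41551 bases from Mir183 on the minus strand.

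**Figure D1:**
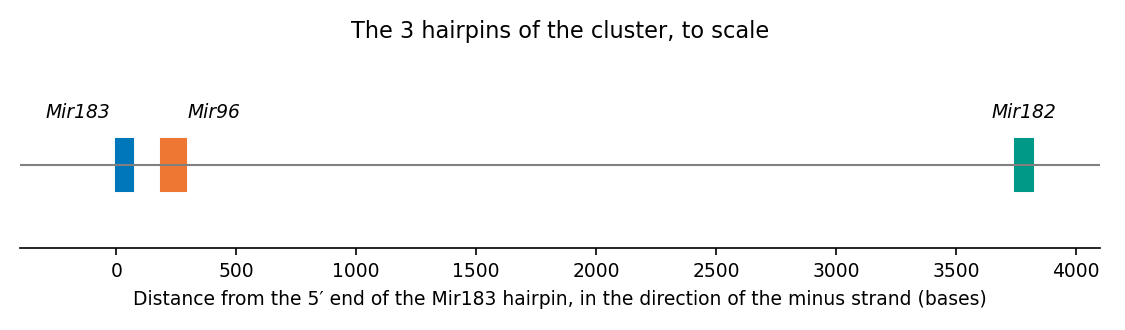
The 3 hairpins drawn to scale along the minus strand, with the distance in bases from the 5′ end of the Mir183 hairpin on the horizontal axis. Mir183 and Mir96 are neighbours with a gap of 116 bases, and Mir182 follows after 3453 bases, so that the cluster covers 3820 bases.

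The libraries held 660346 to 1165321 reads on miRNAs, and those of Lac7 were the shallowest (660346 to 751890). RPM values are scaled to the reads on all listed miRNAs, so that a miRNA can move because others take more or fewer reads. A count of 0 allowed up to 4.54 RPM in the shallowest library and 2.57 RPM in the deepest (3 reads), which covers counting error only. The members had at least 162 reads (miR-183-5p), 26 reads (miR-96-5p) and 581 reads (miR-182-5p) in every library. Pairs of stages were compared with limma on log2(RPM + 1), with p-values adjusted by the method of Benjamini-Hochberg over the 544 miRNAs, and a miRNA was called with an adjusted p under 0.05.

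The first hairpin of the cluster gives miR-183-5p, which was lowest in adult glands and about 4 times higher in late pregnancy. In RPM its levels in pregnancy and lactation overlapped. At W10 its level was 174 to 411 RPM with a median of 219, at P18 it was 744 to 1055 with a median of 993, and at Lac7 it was 960 to 1148 with a median of 1103. At Inv3 the 6 mice had 306, 411, 544, 1008, 1157 and 1227 RPM. Thus every P18 and Lac7 gland was above every W10 gland, the P18 and Lac7 ranges overlapped, and the Inv3 glands ran from the W10 range to above the Lac7 range. The mean was 243 ± 86.6 RPM for adult, 954 ± 116 for pregnant, 1080 ± 71.3 for lactating and 775 ± 403 for involuting glands (SD, n = 6 each).

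The second hairpin gives miR-96-5p, the least abundant member, which was at its highest in lactation. Its level was 28.0 to 63.0 RPM at W10 (median 47.5), 172 to 271 at P18 (median 200) and 364 to 571 at Lac7 (median 482). The Inv3 mice had 85.7, 86.4, 133, 241, 275 and 303 RPM. No 2 of W10, P18 and Lac7 overlapped, and all Inv3 glands lay between the highest W10 and the lowest Lac7 gland. The means were 46.2 ± 14.5, 208 ± 37.7, 478 ± 68.0 and 187 ± 97.3 RPM at W10, P18, Lac7 and Inv3 (SD, n = 6 each).

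The third hairpin gives miR-182-5p, the member with the most reads at every stage, whose highest levels were also those of lactation. It had 578 to 857 RPM at W10 (median 726), 1775 to 2324 at P18 (median 2037) and 5808 to 7101 at Lac7 (median 6656). At Inv3 the mice had 1122, 1285, 1305, 2842, 3101 and 3498 RPM. W10, P18 and Lac7 were separate from each other, and the Inv3 glands lay above all W10 glands, below all Lac7 glands and on both sides of the P18 range. The means were 715 ± 101, 2038 ± 200.3, 6564 ± 469 and 2192 ± 1069 RPM (SD, n = 6 each), and by its mean miR-182-5p ranked 79 of the 544 miRNAs in adult, 45 in pregnant, 23 in lactating and 42 in involuting glands. In the same order the ranks of miR-183-5p were 120, 65, 60 and 64, and those of miR-96-5p 211, 115, 87 and 113. Reads are not molecules, since small RNAs are captured with unequal yield in ligation, so these levels order the members only by reads.

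**Figure D2:**
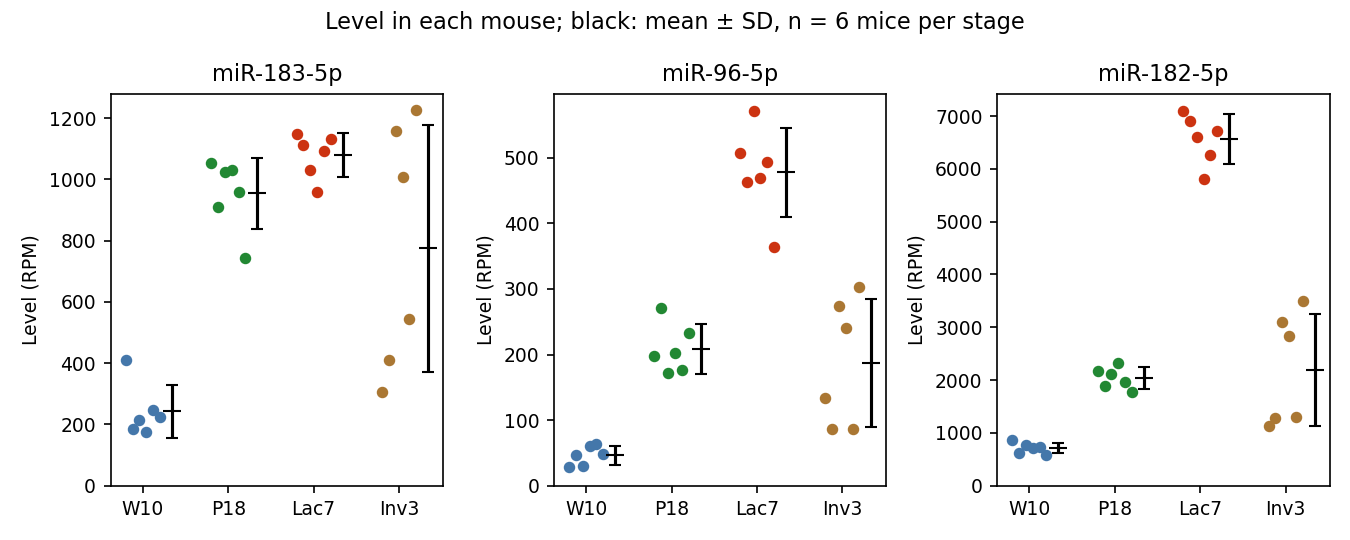
Level of each member in RPM on a linear axis from 0, with 1 point per mouse by stage and, in black, the mean ± SD of 6 mice. At Lac7 miR-182-5p and miR-96-5p stand apart from the other stages, whereas the P18 and Lac7 points of miR-183-5p overlap, and the Inv3 points spread widely for all 3.

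Between adult and pregnant glands, all 3 members rose. The log2 fold change was 2.02 for miR-183-5p (SE 0.26, limma adjusted p = 3.2e-07), 2.19 for miR-96-5p (SE 0.27, adjusted p = 2.3e-07) and 1.52 for miR-182-5p (SE 0.21, adjusted p = 1.2e-06), with ratios of the mean RPM of 3.93, 4.51 and 2.85. Of all 544 miRNAs, 12.1% were called higher at P18, and the median log2 fold change over them was -0.32. Scaled by DESeq2 size factors in place of RPM, the median of all was -0.08 and the members were at 2.27, 2.44 and 1.77. Reads of the skeletal muscle list (miR-1a-3p, miR-133a-3p and miR-206-3p) moved the other way, from 2308 to 22907 RPM in sum at W10 to 190 to 2370 at P18. Of these 3, 2 were called lower, as were 160 of all 544 miRNAs, and none was at 0 in all mice of a stage. Their part in the members' change was not tested.

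Between pregnant and lactating glands, miR-96-5p and miR-182-5p rose, and miR-183-5p did not pass the test. For miR-182-5p the log2 fold change was 1.69 (SE 0.21, limma adjusted p = 2.2e-07) and for miR-96-5p it was 1.20 (SE 0.27, adjusted p = 5.7e-04), with ratios of the mean RPM of 3.22 and 2.29. For miR-183-5p the log2 fold change was 0.19 (SE 0.26, adjusted p = 0.58), with a 95% interval from -0.34 to 0.71, which holds changes from 0.790 to 1.64 times. In this comparison 13.8% of the 544 miRNAs were called higher, and the median log2 fold change was -0.34 (-0.13 with size factors). With size factors miR-183-5p was at 0.49 (adjusted p = 0.13), against 1.50 for miR-96-5p and 1.99 for miR-182-5p. Scaled in this way, miR-183-5p was at 666 to 1042 at P18 and 1100 to 1402 at Lac7. Every Lac7 gland was then above every P18 gland, unlike in RPM. The SE of miR-183-5p in the shared fit includes the wide spread at Inv3. In a limma fit of RPM in the 12 P18 and Lac7 libraries alone the SE was 0.09, with an adjusted p of 0.10.

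Between lactating and involuting glands, all 3 members fell, miR-183-5p by the least. The log2 fold change was -0.67 for miR-183-5p (SE 0.26, limma adjusted p = 0.033), -1.52 for miR-96-5p (SE 0.27, adjusted p = 4.1e-05) and -1.73 for miR-182-5p (SE 0.21, adjusted p = 1.5e-07). The share of all 544 miRNAs called lower at Inv3 was 18.9%, and their median log2 fold change was 0.28. Whether the fall of miR-183-5p was called depended on the mice included and on the test. The call held in limma with size factors (-0.84, adjusted p = 0.0086) and in DESeq2 on the recovered reads (-0.68, adjusted p = 0.023). Its call was lost when Inv3 mouse 1, 2 or 5 or Lac7 mouse 1, 2 or 6 was left out, with log2 fold changes of -0.44 to -0.66 and adjusted p of 0.052 to 0.13, as well as with edgeR on the recovered reads (-0.53, adjusted p = 0.098). With the number of the mouse as a replicate block, which the labels do not tie to any pairing, its adjusted p was 0.054.

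Over longer steps, Lac7 was above W10 for all 3 members, where 18.2% of the 544 miRNAs were called higher. The log2 fold change was 2.21 for miR-183-5p (SE 0.26, limma adjusted p = 2.2e-08), 3.39 for miR-96-5p (SE 0.27, adjusted p = 2.1e-11) and 3.21 for miR-182-5p (SE 0.21, adjusted p = 6.7e-13), so that the mean RPM were 4.45, 10.4 and 9.18 times those of adult glands. Inv3 was above W10 for all 3 too, with log2 fold changes of 1.54, 1.87 and 1.47 and adjusted p of 2.8e-05, 4.5e-06 and 4.3e-06, against 7.9% of all miRNAs called higher. These comparisons share the W10 or Lac7 mice with those above and are not independent of them.

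Between Inv3 and P18, none of the 3 members was called. The log2 fold changes were -0.48 for miR-183-5p (95% interval -1.01 to 0.04, limma adjusted p = 0.18), -0.32 for miR-96-5p (-0.87 to 0.23, adjusted p = 0.43) and -0.045 for miR-182-5p (-0.48 to 0.39, adjusted p = 0.92), while 10.8% of the 544 miRNAs were called higher and 17.6% lower at Inv3. By mean RPM the order of the stages was W10, Inv3, P18 and Lac7 for miR-183-5p and miR-96-5p, and W10, P18, Inv3 and Lac7 for miR-182-5p. On the log2 scale of the fit, Inv3 was slightly below P18 for miR-182-5p too (-0.045). For each member Inv3 and P18 did not differ beyond their spread. For miR-183-5p neither did P18 and Lac7 in RPM, while with size factors the mice of P18 and Lac7 did not overlap.

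**Figure D3:**
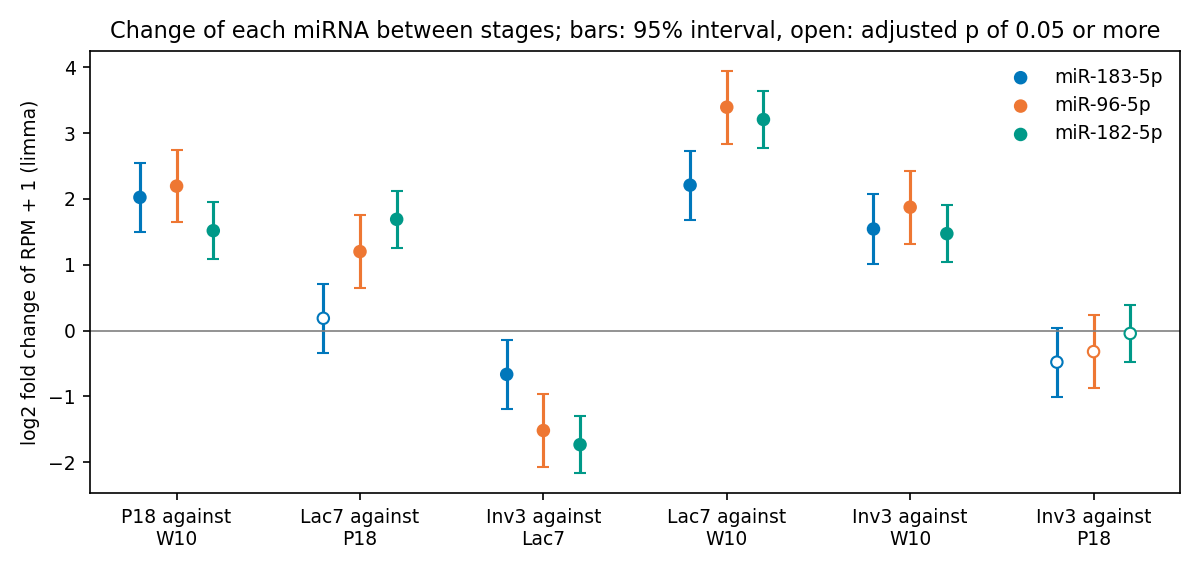
Change of each member between stages as the log2 fold change of RPM + 1 from limma, with bars for the 95% interval, filled points for an adjusted p under 0.05 and open points otherwise. The open points are miR-183-5p between P18 and Lac7 (0.19) and all 3 members between P18 and Inv3.

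Since the hairpins lie in 1 cluster, the ratio of 2 members within a library, each as RPM + 1, was compared between stages. Apart from the added 1, which weighs most on miR-96-5p at W10, such a ratio does not depend on the total of the library, and an unequal capture of 2 sequences cancels if it is the same in all libraries. The differences in mean log2 ratio were tested with a two-sided exact permutation test that takes every split of 6 mice against 6, for which the smallest p is 0.00216, and p-values were adjusted over the 18 comparisons (3 ratios and 6 pairs of stages). Of these 18, 10 had an adjusted p under 0.05.

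Of the 3 ratios, that of miR-182-5p to miR-183-5p had the smallest spread among the mice of P18 and among those of Lac7, and it changed most between these stages. The ratio was 2.04 to 2.38 in P18 glands and 5.72 to 6.39 in Lac7 glands, with geometric means of 2.14 and 6.07. All 6 Lac7 glands were above all 6 P18 glands. The ratio was therefore 2.84 times higher in lactation, a log2 difference of 1.50 (exact permutation, adjusted p = 0.00779). At Inv3 the mice had ratios of 2.40, 2.68, 2.82, 2.85, 3.12 and 3.66 (geometric mean 2.90), all below Lac7 and all above P18. The log2 difference was -1.07 from Lac7 and 0.44 from P18, both without overlap and with an exact permutation adjusted p of 0.00779. W10 glands had 2.08 to 4.09 (geometric mean 3.04), below Lac7 without overlap (log2 difference 0.998, adjusted p = 0.00779 by exact permutation). P18 was lower than W10 by 0.51 on the log2 scale with overlapping mice (exact permutation, adjusted p = 0.013). Inv3 and W10 differed by -0.07 (exact permutation, adjusted p = 0.71). The 6 Inv3 glands, whose miR-182-5p level differed by 3.12 times from the lowest to the highest, thus held a narrower range of this ratio.

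The ratio of miR-96-5p to miR-183-5p moved in the same direction between P18 and Lac7. Written the other way round, as miR-183-5p over miR-96-5p, it was 3.19 to 5.95 at P18 (geometric mean 4.59) and 1.81 to 3.11 at Lac7 (2.27), without overlap, so that the log2 ratio of miR-96-5p to miR-183-5p was higher at Lac7 by 1.01 (exact permutation, adjusted p = 0.00779). At Inv3 miR-183-5p over miR-96-5p was 4.11 (2.29 to 6.28), and the log2 ratio was lower than at Lac7 by 0.85 (exact permutation, adjusted p = 0.013). At W10 it was 5.17 (2.86 to 14.2), and Lac7 was higher by 1.18 (exact permutation, adjusted p = 0.011). The widest ratio at W10, 14.2, was that of mouse 1, in whose library miR-96-5p had 26 reads and miR-183-5p 381. No other pair of stages differed for this ratio, with exact permutation adjusted p of 0.56 to 0.71.

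The pair that shares bases 1 to 7, miR-96-5p and miR-182-5p, changed by -0.49 relative to each other from P18 to Lac7, where the other ratios changed by 1.50 and 1.01, and by 0.68 from W10 to P18, where the others changed by -0.51 and 0.17. Their log2 ratio was lower at Lac7 than at P18 by 0.49 (exact permutation, adjusted p = 0.011) and higher at P18 than at W10 by 0.68 (adjusted p = 0.035), with overlapping mice in both. The second of these was lost with a pseudocount of 10 (0.48, adjusted p = 0.22 by exact permutation) and without W10 mouse 1, 2 or 3 or P18 mouse 1, 2, 5 or 6 (0.50 to 0.73, adjusted p of 0.055 to 0.070). The other 4 pairs of stages had exact permutation adjusted p of 0.29 to 0.60.

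**Figure D4:**
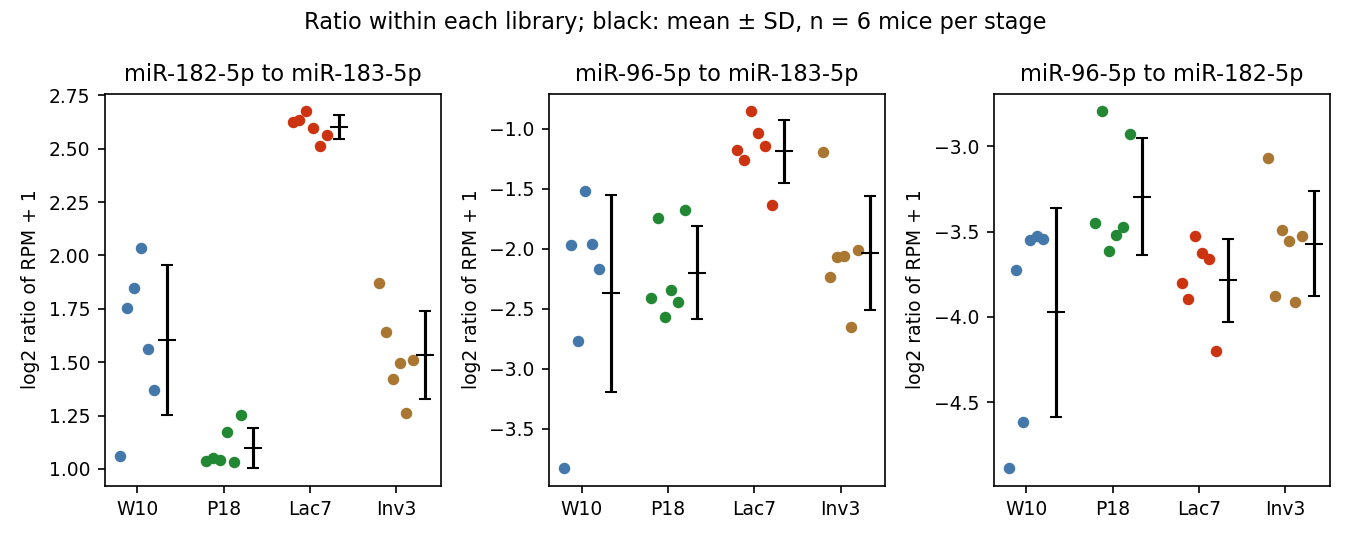
log2 ratio of 2 members within each library by stage, with 1 point per mouse and the mean ± SD of 6 mice in black. The ratio of miR-182-5p to miR-183-5p lies between 1.03 and 1.25 at P18 and between 2.51 and 2.68 at Lac7, and the ratio of miR-96-5p to miR-183-5p is also highest at Lac7.

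Summed, the 3 members had 1004 ± 165 RPM in adult, 3201 ± 288 in pregnant, 8122 ± 531 in lactating and 3155 ± 1562 in involuting glands (SD, n = 6 each). Of this sum, miR-182-5p took 71.5% ± 3.98, 63.7% ± 1.30, 80.8% ± 0.77 and 69.8% ± 1.85 at these stages. The share of miR-183-5p was 23.8% ± 4.71, 29.7% ± 1.56, 13.3% ± 0.50 and 24.2% ± 2.83, and that of miR-96-5p was 4.78% ± 1.75, 6.60% ± 1.60, 5.90% ± 0.89 and 5.96% ± 1.43 (SD, n = 6 for each share).

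The opposite arms of the hairpins were listed too, and only that of Mir183 had enough reads to follow. Their RefSeq sequences are shown with the seed in capitals, since the opposite arm of Mir183 is a second product of the same hairpin, measured in the same libraries.
miR-183-3p: gUGAAUUAccgaagggccauaa
miR-96-3p: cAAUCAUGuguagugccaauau
miR-182-3p: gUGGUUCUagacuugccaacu
Over all libraries miR-183-3p had 429 reads against 16018 for miR-183-5p, or 2.61% of the reads of both arms. There were 3 reads of miR-96-3p against 4574 of miR-96-5p, and 33 reads of miR-182-3p against 56376 of miR-182-5p. The level of miR-183-3p was 0.99 to 9.88 RPM at W10 (median 4.78), 22.4 to 34.7 at P18 (median 28.1), 23.9 to 43.5 at Lac7 (median 35.1) and 7.20 to 24.7 at Inv3 (median 13.9). Like miR-183-5p, it rose from W10 to P18 (log2 fold change 2.47, SE 0.33, limma adjusted p = 6.2e-07) and did not pass between P18 and Lac7 (0.28, SE 0.33, adjusted p = 0.51), where the mice overlapped. At W10 it had only 1 to 9 reads in each library, so the size of that rise rests on low counts. It fell from Lac7 to Inv3 (-1.32, SE 0.33, adjusted p = 0.0016) and was also lower at Inv3 than at P18 (-1.04, SE 0.33, adjusted p = 0.018), with 8 to 25 reads in each Inv3 library. Whether the arms differed in their change was not tested.

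The 5 miRNAs of the epithelial list (miR-141-3p, miR-200a-3p, miR-429-3p, miR-200b-3p and miR-200c-3p, the miR-200 family, which maintains the epithelial state by lowering ZEB1 and ZEB2) were set beside the members, since epithelium makes up a different part of the gland at each stage. In sum they had 14825 to 20697 RPM in adult, 48824 to 63534 in pregnant, 113670 to 133068 in lactating and 23151 to 78252 in involuting glands, and none was at 0 in any library. All 5 were called higher at P18 than at W10 and all 5 lower at Inv3 than at Lac7. From P18 to Lac7, 4 of the 5 were called higher, led by miR-141-3p (log2 fold change 2.14, SE 0.27, limma adjusted p = 2.2e-07), and miR-200c-3p was at 0.40 (SE 0.20, adjusted p = 0.095). Over the list the median log2 fold change was 1.64 at P18 against W10, 1.12 at Lac7 against P18 and -1.59 at Inv3 against Lac7, while over all miRNAs tested it was -0.32, -0.34 and 0.28.

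Lymphocyte and myeloid miRNAs moved against the called members in the steps named here (miR-183-5p was not called from P18 to Lac7). Fibroblast miRNAs did so from Lac7 to Inv3. These were also the commoner directions among all 544 miRNAs. At P18, 160 were called lower and 66 higher than at W10, and at Lac7, 171 lower and 75 higher than at P18. At Inv3, 152 were called higher and 103 lower than at Lac7. Lymphocyte miRNAs (miR-150-5p, miR-155-5p and miR-342-3p) were at 3592 to 5007 RPM in sum in adult, 1637 to 2530 in pregnant, 424 to 838 in lactating and 1575 to 3743 in involuting glands, with 3 of 3 called lower at P18 than at W10 and at Lac7 than at P18, and 3 of 3 called higher at Inv3 than at Lac7. Leukocyte and myeloid miRNAs (miR-142a-3p and miR-223-3p) were called in the same directions, 2 of 2 in each. The fibroblast and smooth muscle list (5 miRNAs, led in reads by miR-143-3p) had 147025 to 171127 RPM in sum at Lac7 and 256725 to 349601 at Inv3, with 5 of 5 called higher at Inv3. In the earlier steps it was mixed, with 1 called higher and 3 lower at P18 than at W10, and 3 lower at Lac7 than at P18. Its sum was 169005 to 211305 RPM at W10 and 191012 to 214796 at P18. Of the 2 basal and keratinocyte miRNAs (miR-205-5p and miR-203-3p), none was called at P18 against W10, 2 were lower at Lac7 than at P18, and 1 was higher and 1 lower at Inv3 than at Lac7. Of the 2 endothelial miRNAs (both arms of miR-126a), 1 was lower at P18, 2 were higher at Lac7 and 1 was lower at Inv3 than at the stage before. Of the 2 adipose-linked miRNAs (miR-193b-3p and miR-365-3p), 2 were lower at P18, 1 was lower at Lac7, and 1 was higher and 1 lower at Inv3. Of the 3 red blood cell miRNAs (miR-451a, miR-144-3p and miR-486a-5p), 2 were lower at P18, 1 was higher at Lac7, and 1 was higher and 1 lower at Inv3. None of the miRNAs on these lists was at 0 in all mice of a stage, and their part in the members' levels was not tested.

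Relative to the summed epithelial list, the members did not move alike. Differences were tested by exact permutation as above and adjusted over 18 comparisons, of which 7 had an adjusted p under 0.05. From P18 to Lac7 the log2 ratio to the list fell by 0.91 for miR-183-5p and rose by 0.60 for miR-182-5p, both without overlap (exact permutation, adjusted p = 0.013 for each). For miR-96-5p it differed by 0.11 (exact permutation, adjusted p = 0.38). From Lac7 to Inv3 the ratio of miR-183-5p rose by 0.84 without overlap (exact permutation, adjusted p = 0.013), while those of miR-96-5p (-0.02, adjusted p = 0.92) and miR-182-5p (-0.23, adjusted p = 0.054) did not pass. The sum is mostly miR-200a-3p and miR-200b-3p. The median over the 5 miRNAs was also tried in place of the sum. In each library it was the level of miR-200c-3p, except in W10 mouse 1, where it was that of miR-200b-3p. Such a ratio is thus in effect a ratio to miR-200c-3p, which was not called from P18 to Lac7. With this median, the change of miR-183-5p from P18 to Lac7 was -0.22 (exact permutation, adjusted p = 0.14), that of miR-182-5p was 1.29 (adjusted p = 0.0039) and that of miR-96-5p 0.80 (adjusted p = 0.0065). From Lac7 to Inv3 it was then 0.42 for miR-183-5p (exact permutation, adjusted p = 0.036), -0.43 for miR-96-5p (adjusted p = 0.14) and -0.65 for miR-182-5p (adjusted p = 0.0065).

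Between Lac7 and W10, the ratio to the summed list was lower at Lac7 for miR-183-5p (-0.67, exact permutation, adjusted p = 0.031) and higher for miR-96-5p (0.52, adjusted p = 0.045) and miR-182-5p (0.33, adjusted p = 0.032). With 5 mice against 6, for which fewer splits exist, each of these was lost in several cases, with exact permutation adjusted p of up to 0.061, 0.089 and 0.065. For miR-183-5p these were the cases without W10 mouse 1, 2, 3 or 7 or Lac7 mouse 3 or 4 (-0.71 to -0.49), for miR-96-5p those without W10 mouse 1, 2, 3, 4 or 7 or Lac7 mouse 1, 3, 4 or 5 (0.40 to 0.58), and for miR-182-5p those without W10 mouse 2, 3, 4 or 7 or Lac7 mouse 1, 3, 4, 5 or 6 (0.27 to 0.35). The sign for miR-183-5p was the opposite with the median over the list (0.55), while miR-96-5p was at 1.73 and miR-182-5p at 1.54 (exact permutation, adjusted p = 0.0039 for each). At Inv3 the ratio of miR-182-5p was higher than at P18 by 0.37 (exact permutation, adjusted p = 0.031), or by 0.64 with the median over the list (adjusted p = 0.0039). The other pairs of stages did not pass with the sum. With the median, P18 was above W10 for miR-183-5p (0.76) and miR-96-5p (0.94), and Inv3 was above W10 for miR-183-5p (0.97), miR-96-5p (1.30) and miR-182-5p (0.90), with an exact permutation adjusted p of 0.0039 for each.

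**Figure D5:**
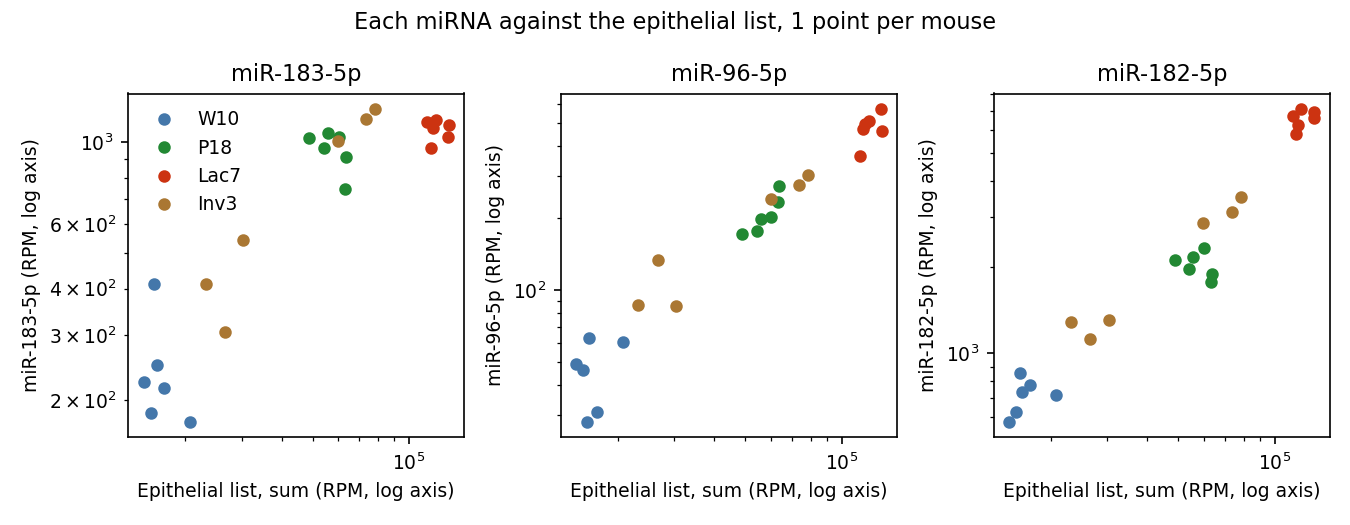
Level of each member against the summed epithelial list, both in RPM on log axes, with 1 point per mouse in the colour of its stage. From P18 to Lac7 the points move to the right in each panel, and they also move up for miR-96-5p and miR-182-5p, whereas those of miR-183-5p overlap in height. The Inv3 points form a low and a high set.

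The spread at Inv3 was shared by the members and by the epithelial list. Mice 1, 2 and 5 had the lowest levels of all 3 members and mice 3, 4 and 6 the highest, and the same mice had 26574, 23151 and 30330 RPM and 73460, 59866 and 78252 RPM of the epithelial list. No value of a member or of the list fell between 544 and 1008 RPM for miR-183-5p, 133 and 241 for miR-96-5p, 1305 and 2842 for miR-182-5p or 30330 and 59866 for the list. Because the mice lie in these separate sets, no test of a correlation that includes them is given, and the sets were not compared with each other. The libraries of mice 1, 2 and 5 were also the deeper ones, with 1165321, 1110996 and 1049915 reads against 1012040, 976572 and 722068 in mice 3, 4 and 6, and the part of depth in this was not tested.

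Among the 18 mice of W10, P18 and Lac7, with the stage means subtracted, miR-183-5p and miR-182-5p were related (Pearson r = 0.67, p = 0.013 by 100000 permutations within stages, adjusted p = 0.058, and Spearman rho = 0.70, p = 0.0043, adjusted p = 0.026, adjusted over 18 relations, those with the Inv3 mice included). Without the 2 mice farthest from the median in miR-183-5p, r was 0.70. Within stages r was 0.62 at W10, 0.88 at P18 and 0.85 at Lac7 (6 mice each, exact permutation, adjusted p = 0.29, 0.058 and 0.13), with rho of 0.49, 0.94 and 0.89 (exact permutation, adjusted p = 0.46, 0.075 and 0.12). For miR-96-5p, r was -0.56 with miR-183-5p and -0.45 with miR-182-5p over the 18 mice (permutation, adjusted p = 0.19 and 0.26), with rho of -0.45 and -0.51 (permutation, adjusted p = 0.21 and 0.18). Without the 2 farthest mice, taken by miR-183-5p for the first relation and by miR-96-5p for the second, r was -0.14 and -0.17. Each r thus rested largely on the mice left out of it. Within W10, P18 and Lac7, r was -0.60, -0.55 and -0.32 with miR-183-5p, and -0.53, -0.51 and -0.03 with miR-182-5p (exact permutation, adjusted p of 0.29 to 0.96). Levels in 1 library share its total, and miR-96-5p had the fewest reads.

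As a description, the miRNAs most like each member were looked for among the 185 others whose mean reached 100 RPM at some stage, by Pearson's r of log2(RPM + 1) over the 24 libraries, which share the stage differences. The Inv3 mice are included, so these r also carry the separate sets at Inv3. The highest for miR-183-5p were miR-146b-5p (0.96), miR-141-5p and miR-200b-5p (0.94 each) and miR-200a-5p and let-7i-5p (0.93 each), all above its r of 0.87 with both miR-96-5p and miR-182-5p. For miR-96-5p they were miR-200a-3p and miR-27b-3p (0.98 each), miR-429-3p (0.97), miR-200b-3p (0.96) and miR-141-5p (0.95), against 0.94 with miR-182-5p. For miR-182-5p they were miR-429-3p (0.98), miR-200b-3p and miR-141-3p (0.97 each) and let-7i-5p and miR-141-5p (0.96 each). Products of the miR-200 family hairpins were thus on all 3 lists. For miR-183-5p these were only the opposite arms (miR-141-5p, miR-200b-5p and miR-200a-5p), and none was a miRNA of the epithelial list. No cluster member was among the 5 highest of another. On none of the lists does a likeness say that the miRNAs share function or control.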

How the data were processed

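RNA was extracted with the mirVana kit and sequenced after library preparation with a QIAseq kit for miRNA, and whether molecular identifiers were used for counting is not given in the sources used here. Per the submitters' processing notes, Trimmomatic 0.36, cutadapt, FastQC and MultiQC were used and the build was GRCm38, and the study's methods name QuickMIRSeq with miRBase 22 for assigning reads. The authors deposited RPM values, that is reads per 1000000 reads on the listed miRNAs. These were whole multiples of a step in each library, and 100% of the values up to 1000 RPM gave whole reads within 0.1 read. The step of W10 mouse 7, 0.995 RPM, is close to 1 RPM, with which 64.9% of its values would also be whole. Methods name abdominal and inguinal glands, the design text inguinal glands only. The members, lists and tests were chosen with earlier results of these data known. The named miRNAs are the members, their opposite arms, listed miRNAs with a member's seed, the epithelial list, and the 5 miRNAs most correlated with each member.

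Values were transformed to log2(RPM + 1) and compared by limma 3.58.1 under R 4.3.3, with lmFit and a trended eBayes, in 1 fit of 24 libraries and 544 miRNAs, so a fold change of low values is understated. Calls were two-sided with an adjusted p under 0.05. Scripts were tested on simulated data. Also tried were a pseudocount of 0.1 or 10, all miRNAs without a filter, only those reaching 100 RPM, the 12 libraries of a comparison alone, a replicate block, DESeq2 size factors, edgeR 4.0.16 and DESeq2 1.42.0 on the recovered reads, an added limit of 1 on the absolute log2 fold change, the median over the list, and each mouse left out. The relation over 18 mice was chosen after the spread at Inv3 was seen. Nothing says that the mice came from separate litters or batches, so p-values measure the spread between these mice. No 2 libraries of a stage agreed within sampling noise (60 pairs, chi-square per degree of freedom of at least 9.63). Permutations were run with scipy 1.17.1, numpy 2.4.6 and pandas 2.3.3 in python 3.11.15, and figures were drawn with matplotlib 3.10.9.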

Additional observations from a re-analysis of the deposited data

Results flagged for a closer look

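In the 36 groups of 6 mice examined (the members' levels, their ratios to each other and their ratios to the epithelial list at each stage), 2 had a mouse farther from the others than Dixon's 95% critical value allows. Chance gives about 1 in 20 groups. At W10, mouse 1 had 410.87 RPM of miR-183-5p, with a gap of 0.687 of the range to the next mouse. Its miR-182-5p, 857 RPM, was the highest of W10 and its miR-96-5p, 28.0 RPM, the lowest. At Inv3, mouse 1 had a log2 ratio of miR-183-5p to the summed epithelial list of -6.44, with a gap of 0.695 of the range. This mouse also had the lowest miR-183-5p (306 RPM) and miR-182-5p (1122 RPM) of its stage.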

How the results depend on the processing

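Of 180 fold changes of members recomputed under other settings, 172 kept direction and call, as did 207 of 216 with a mouse left out. The fall of miR-183-5p from Lac7 to Inv3 (-0.67) lost its call with no filter (adjusted p = 0.051), in a fit of the 12 libraries (0.10), with the replicate block (0.054), with edgeR (-0.53, 0.098) and with the fold limit, and it ranged from -0.84 to -0.44 with a mouse left out. From P18 to Inv3, the uncalled change of miR-182-5p (-0.045) was 0.083 with size factors, 0.20 with edgeR and 0.21 with DESeq2, and -0.21 to 0.12 with a mouse left out. The replicate block changed no other call of a member. Mouse numbers do not pair the mice: over 188 miRNAs, the deviations from stage means correlated by -0.045 on average in 33 pairs of libraries with the same number and by 0.0039 in 183 others. No counts of called miRNAs moved by over 1.5 times except with the filter at 100 RPM, which tests fewer miRNAs (127 for P18 against W10, 132 for Lac7 against P18, 151 for Inv3 against Lac7, 164 for Lac7 against W10, 123 for Inv3 against W10 and 101 for Inv3 against P18, in place of 226, 246, 255, 363, 213 and 155), and with the fold limit, which adds a condition (150 from W10 to P18, 146 from Lac7 to Inv3, 136 from W10 to Inv3 and 77 from P18 to Inv3).

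Of the ratios between members, that of miR-96-5p to miR-182-5p from W10 to P18 (0.68) was 0.48 and uncalled with a pseudocount of 10 and 0.50 to 0.77 with a mouse left out, and from W10 to Lac7 (0.19) it was -0.040 with a pseudocount of 10. With P18 against W10 the ratio of miR-96-5p to miR-183-5p ranged from -0.12 to 0.34 and with Inv3 against P18 from -0.0088 to 0.28 with a mouse left out, and that of miR-182-5p to miR-183-5p from -0.18 to 0.015 from W10 to Inv3. None of these 3 was called. With the median over the epithelial list, the change relative to the list from W10 to P18 was 0.76 for miR-183-5p, 0.94 for miR-96-5p (both then called) and 0.26 for miR-182-5p (opposite sign). From P18 to Lac7 it was -0.22 for miR-183-5p (call lost) and 0.80 for miR-96-5p (call gained). From W10 to Lac7 it was 0.55 for miR-183-5p (opposite sign), from W10 to Inv3 it was 0.97, 1.30 and 0.90 for miR-183-5p, miR-96-5p and miR-182-5p (calls gained), from P18 to Inv3 it was 0.20 for miR-183-5p (opposite sign), and from Lac7 to Inv3 it was -0.65 for miR-182-5p (call gained). This median was the level of miR-200c-3p in every library except W10 mouse 1. Within the list, miR-200c-3p had the lowest log2 fold change from W10 to P18 (1.23) and from P18 to Lac7 (0.40). For miR-200a-3p these were 2.01 and 1.11. The setting thus changes which miRNA the members are set against. With a mouse left out, which allows fewer splits, ratios to the summed list ranged from W10 to Lac7 from -0.81 to -0.49 for miR-183-5p, 0.40 to 0.63 for miR-96-5p and 0.27 to 0.40 for miR-182-5p, from W10 to P18 from 0.30 to 0.52 for miR-96-5p, from W10 to Inv3 from 0.39 to 0.61 for miR-96-5p, from Lac7 to Inv3 from -0.29 to -0.20 for miR-182-5p and -0.094 to 0.070 for miR-96-5p, and from P18 to Inv3 from -0.17 to 0.021 for miR-183-5p. Depth limits mainly miR-96-5p at W10 (26 to 72 reads per library).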
